A study of Capra hircus and Bos taurus with 7 samples.

Results

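The imprinted DLK1-DIO3 locus of mammals holds one of the largest known clusters of microRNA (miRNA) genes, and 39 of the 364 mature miRNA rows counted in milk powder vesicles belonged to it. The rows were chosen by name from a list of 38 miRNA numbers placed in this cluster, 29 of which had a row, counting lettered copies and separate arms as rows of their own, together with miR-3578, whose row shares reads with that of miR-382. Extracellular vesicles (EVs), membrane-bound particles that cells release, had been separated by size exclusion chromatography from reconstituted milk powders, and their small RNA was sequenced in 7 libraries. Of these, 3 came from whole goat (Capra hircus) milk powder and 3 from skimmed goat milk powder, each set lettered A to C, and 1 came from a commercial bovine (Bos taurus) milk powder. No group had a treatment beyond its powder type, and the labels give no animal, breed, age, lot or maker. Whether A to C are separate packs or repeat isolations of 1 powder is not stated, and p-values below therefore reflect library-to-library spread alone, possibly technical.

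Imprinted genes are read from the copy of only 1 parent, and in this locus the miRNAs and long noncoding RNAs such as MEG3 come from the maternal chromosome, while DLK1, RTL1 and DIO3 come from the paternal one. The miRNAs lie in a group around RTL1, several of them on its antisense strand, and in a long tandem array that runs from miR-379 to miR-656 and is processed from a shared host transcript. The cluster is best known for its expression in embryo, placenta, brain and muscle, and in sheep a mutation between DLK1 and MEG3 causes the muscular callipyge trait. In the tables, 7 rows belonged to the RTL1 group (miR-127, miR-136, miR-370, miR-432, miR-433, miR-493 and miR-665) and 32 to the long array, with miR-3578 counted there. Of the 39 rows, 30 matched a goat miRNA gene by symbol in RefSeq (assembly ARS1.2), and all 30 lay between DLK1 and DIO3 in that annotation. The other 9, among them miR-409b, miR-411c-5p, miR-323 and miR-154c, had no entry of the same name. RefSeq lists 45 miRNA genes between DLK1 and DIO3 in goat, and 29 of them had a row by name. No positions are printed, because the counts name no genome build.

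Depth ran from 6561887 to 11963849 estimated miRNA reads in the goat libraries and was 5675489 in the bovine one. The 7 rows of mammary epithelial miRNAs (the miR-200 family, miR-205 and miR-375) were summed as a partial check of the labelled source. They took between 9.85% and 10.4% of the reads of the whole libraries, 10.5% and 11.4% of the skimmed ones and 10.6% in bovine, with 0 rows at 0 there. Among them miR-205 ran from 0.483 to 268 CPM over the goat libraries, so the sum does not speak for every row. Values are given as counts-per-million (CPM) of all miRNA reads of a library. A read covers a mature miRNA from end to end, so CPM carries no length correction. Fewer vesicles carrying a miRNA and fewer copies per vesicle cannot be told apart in such bulk values.

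The cluster was a small part of the goat vesicle miRNAs and was nearly missing from the bovine powder. It took 0.601%, 0.638% and 0.546% of the reads of whole libraries A, B and C and 0.544%, 0.577% and 0.588% of those of skimmed libraries A, B and C. In the bovine library 618 reads, or 0.0109% (exact 95% Clopper-Pearson interval 0.0100% to 0.0118%), were assigned to it. The goat mean of 0.582% ± 0.0355 (SD, n = 6) was 53.5 times the bovine share, with a 95% interval of 49.4 to 58.0 that covers counting error of the bovine share only. The labels name no molecular identifiers, so reads may be copies of 1 molecule, and neither this interval nor any other interval or floor given covers more than counting error. The whole and skimmed shares overlapped, at 0.595% ± 0.0463 and 0.570% ± 0.0227 (SD, n = 3 each). Their difference of -0.025 percentage points had an exact two-sided permutation p of 0.4 (0.9 after Benjamini-Hochberg adjustment over 6 such measures), where 3 libraries against 3 cannot go below 0.1.

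**Figure D1:**
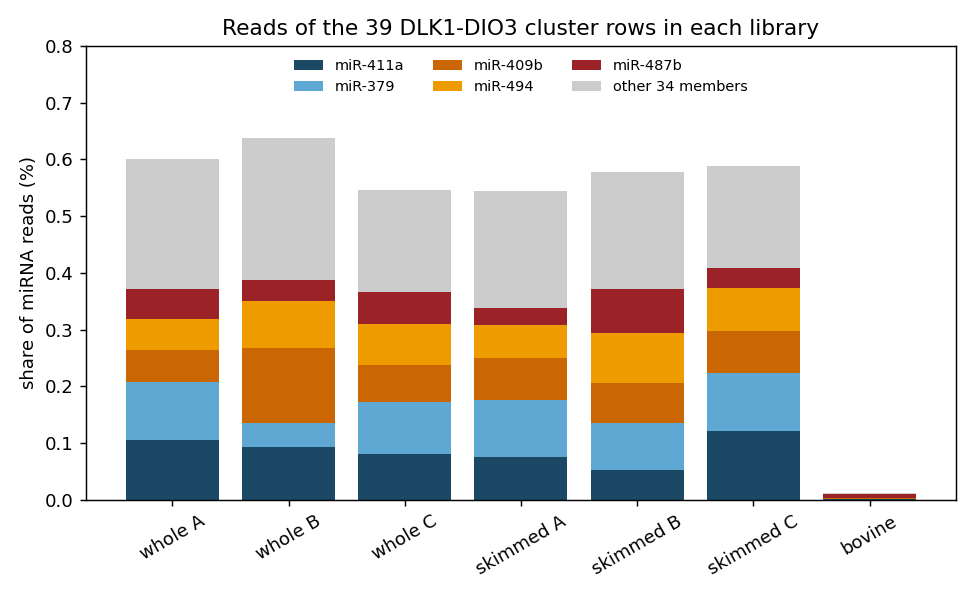
Share of all miRNA reads (%, vertical axis) taken by the 39 cluster rows in each of the 7 libraries (horizontal axis), stacked by the 5 rows with the highest goat mean and the other 34 together. The 6 goat libraries stand between 0.544% and 0.638%, and the bovine library at 0.0109%.

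Most of that share came from the long array. The RTL1 group held 0.0241% ± 0.0135 of whole and 0.0246% ± 0.0128 of skimmed reads (SD, n = 3 each; exact permutation p = 1), against 0.571% ± 0.0383 and 0.545% ± 0.0230 for the array from miR-379 to miR-656 (p = 0.5). Within the cluster the RTL1 group made up between 1.77% of reads in whole C and 6.82% in skimmed B. The 5 rows with the highest goat mean, miR-411a, miR-379, miR-409b, miR-494 and miR-487b, held between 60.7% and 69.5% of the cluster's reads in every goat library. Which row led the cluster changed from library to library: miR-411a in whole A and skimmed C, miR-409b in whole B, miR-379 in whole C and skimmed A, and miR-494 in skimmed B.

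At the head of the array, miR-379 and miR-411a are neighbouring genes in the goat annotation, the first pair of the array. Whole libraries A to C held miR-411a at 1058, 934 and 804 CPM, and skimmed libraries A to C at 753, 522 and 1217 CPM. The value in bovine was 5.81 CPM. Skimmed B was the lowest and skimmed C the highest of the goat libraries, so the powders overlapped (log2 fold change of skimmed over whole -0.08 ± 0.31 SE). For miR-379 the whole libraries gave 1022, 423 and 911 CPM, the skimmed ones 1001, 830 and 1018 CPM, and bovine 9.16 CPM. Here whole B stood apart below the rest, and the log2 fold change was 0.36 ± 0.34 (SE). Thus the adjacent genes were near equal on average, at 881 and 867 CPM over 6 goat libraries, while their log2 ratio of miR-379 to miR-411a ran from -1.14 in whole B to 0.67 in skimmed B.

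Farther along the array, miR-409b, named like a copy of miR-409, reached 1325 CPM in whole B against 556 and 664.5 CPM in whole A and C and 736, 707 and 741 CPM in skimmed A to C. Its bovine value was 5.29 CPM. The 3 skimmed libraries were close together (728 ± 18.4 CPM, SD, n = 3) and inside the whole range (log2 fold change -0.11 ± 0.32 SE). For miR-494 the goat libraries differed least, by a factor of 1.62 from lowest to highest: from 543 to 825 CPM in the whole powder (709 in its library C), and 586, 882 and 753 CPM in skimmed libraries A to C, against 5.99 CPM in bovine. Whole libraries A to C gave 543, 366 and 575 CPM of miR-487b; skimmed A was lowest (306 CPM), skimmed B highest (780 CPM) and skimmed C at 353 CPM. Its log2 fold changes and that of miR-494 were 0.03 ± 0.41 and 0.19 ± 0.25 (SE). In bovine, miR-487b stood at 67.0 CPM, far above every other member there.

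The next tier lay between 100 and 300 CPM on average. One row of it, miR-369-3p, the 3' arm of its hairpin, was lower in every skimmed library, at 160, 116 and 233 CPM, than in any whole library, at 348, 281 and 414 CPM. Its log2 fold change was -0.95 ± 0.48 (SE), which missed the threshold of 0.05 (adjusted p = 0.52, edgeR quasi-likelihood test, Benjamini-Hochberg adjustment). The opposite order was seen for miR-127, which is transcribed antisense to RTL1 and is the most abundant row of the RTL1 group. Its skimmed values were 136.02, 246 and 132 CPM and its whole values 116, 106 and 29.3 CPM, so that all skimmed libraries lay above all whole ones, with whole C far below the others. The log2 fold change of 1.13 ± 0.79 (SE) did not pass either (edgeR adjusted p = 0.70).

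The rows of miR-382 and miR-3578 held identical values in all 7 libraries, so they are 1 measurement counted in 2 rows and their split is uncertain. The whole libraries held 230, 418 and 207 CPM of each and the skimmed ones 173, 142.2 and 269 CPM, with overlapping powders and whole B highest. Skimmed over whole, the log2 difference was -0.45 ± 0.52 (SE). For miR-655 the whole libraries gave 161, 129 and 72.4 CPM and the skimmed ones 314, 99.6 and 113 CPM, with skimmed A apart above the rest (log2 fold change 0.66 ± 0.75 SE). The remaining rows of this tier also overlapped between powders: miR-323 ranged from 92.0 to 273 CPM over the goat libraries and miR-323b-3p from 35.5 to 183 CPM. The widest range belonged to miR-411c-5p, with 219, 11.2 and 257 CPM in whole libraries against 51.2, 300 and 121 CPM in skimmed ones, a factor of 26.7 between skimmed B and whole B. These 3 rows had log2 fold changes of 0.21 ± 0.73, -0.23 ± 0.92 and 0.01 ± 1.10 (SE).

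**Figure D2:**
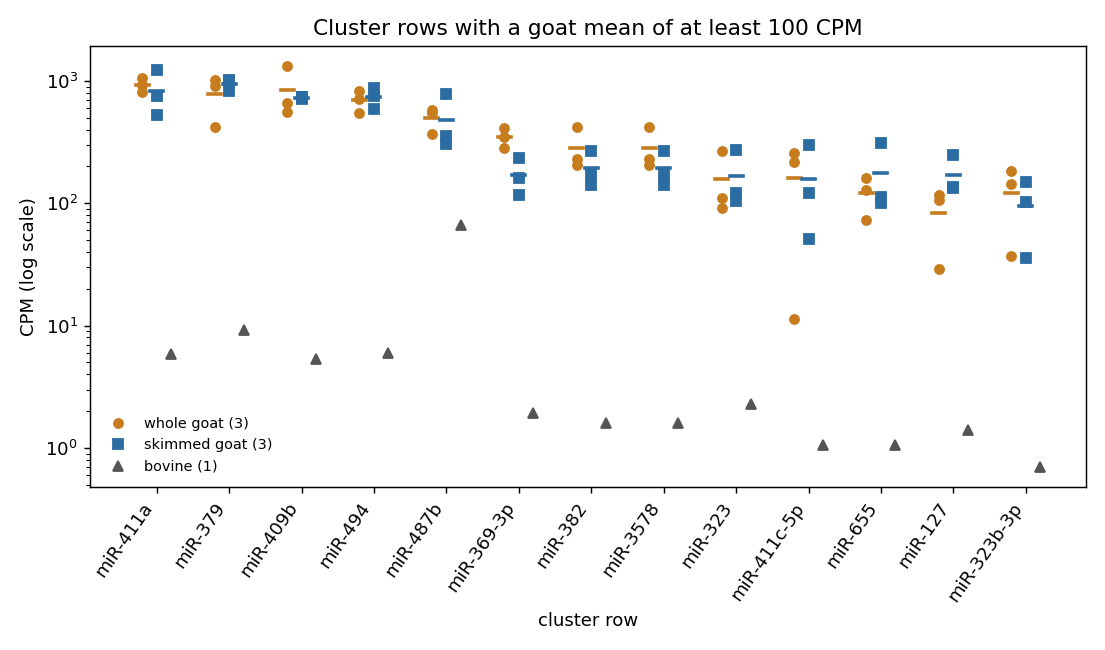
CPM (vertical axis, log scale) of the 13 cluster rows with a goat mean of at least 100 CPM (horizontal axis, by goat mean), 1 point per library, with short lines at the means of the 3 whole and the 3 skimmed libraries. Whole and skimmed points overlap for all but miR-369-3p and miR-127, and the bovine point lies below every goat point in all 13 rows.

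Behind these rows the cluster broke up into values that were either high or near absent. Among the 39 rows, 15 had at least 100 reads in all 6 goat libraries, where 37.4% of all 364 rows did. Another 20 swung between libraries, from 100 reads or more in some goat library to 10 or fewer in some other, against a background of 33.8% of all rows. A further 3 (miR-329a, miR-376a and miR-376d) had at most 10 reads in every goat library, and miR-485, at 9.46 to 113 CPM, fell between the classes. Of the 234 values of the cluster in goat libraries, 87 were at 10 reads or fewer and 4 above 10 but under 100 (1.71%), the rest being at 100 or more. Over all rows 3.85% of values lay in that middle range. Values at 10 reads or fewer made up 37.2% in the cluster and 43.6% over all rows. Those at 100 or more made up 61.1% and 52.6%. The split into high and near absent values was thus not particular to the cluster. In the RTL1 group, whose miRNAs are neighbours over a short stretch, miR-127 was the 1 row of 7 above 100 reads in all goat libraries; in the array 14 of 32 were.

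Each goat library carried exactly 1 cluster row that was absent or near absent from the 5 others. Whole A had 341 reads of miR-376b, a member of a family known for adenosine-to-inosine editing, whole B had 341 of miR-654, and whole C had 267 of miR-136, an antisense miRNA of RTL1. Skimmed A had 349 reads of miR-134, known for its role at dendritic spines of neurons, skimmed B had 646 of miR-433, and skimmed C had 178 of miR-409a. Each of these rows had at most 2 reads in every other goat library and 0 in bovine. Such single-library rows numbered 40 among all 364 (11%), between 4 and 8 in each library, and 6 of the 39 cluster rows. The reads of a single library cannot separate the powders.

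**Figure D3:**
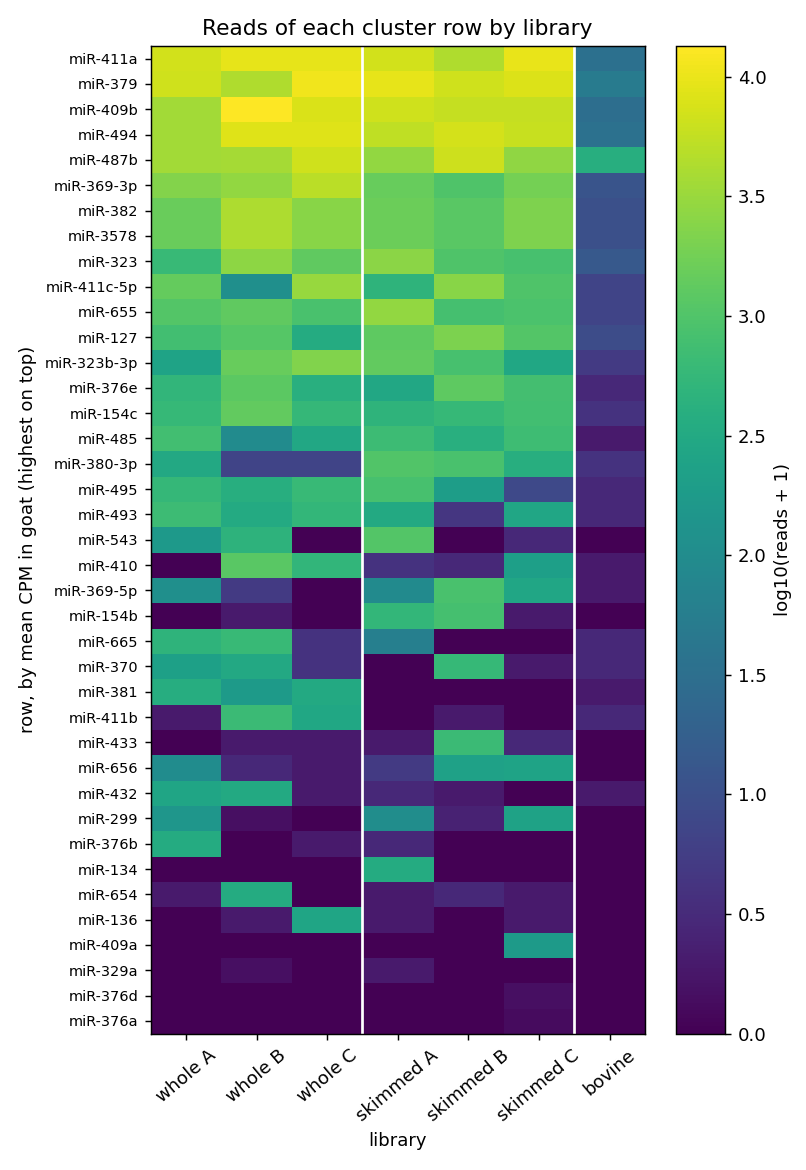
Reads of each of the 39 cluster rows (vertical axis, by goat mean, highest on top) in each library (horizontal axis), coloured as log10(reads + 1). The upper 15 rows are filled in all goat libraries. Below them filled and near empty cells alternate with few values between. The bovine column is brightest at miR-487b (380 reads), next at miR-379 (52 reads), and dark in the lower rows.

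Some neighbours in the genome, and the arms of 1 hairpin, were not high in the same libraries. These are examples, and neighbouring rows were not compared with distant ones. Next to miR-411a in the goat annotation come miR-380 and miR-411b. The row of miR-380-3p held 1013, 891 and 382 reads in skimmed libraries but 313, 6 and 6 in whole ones, so that skimmed values were higher throughout, if narrowly in CPM between skimmed C (48.0) and whole A (47.7). That of miR-411b was counted 646 and 282 times in whole B and C, once in whole A and skimmed B, and 0 times in skimmed A and C. Likewise miR-381 and miR-487b are neighbours, and miR-381 was listed at 0 reads in all 3 skimmed libraries, where miR-487b had between 306 and 780 CPM. From the hairpin of miR-369, the 5' arm was read 93, 888 and 281 times in skimmed libraries and 114, 4 and 0 times in whole ones. It made up between 0% of the reads of both arms in whole C and 48.0% in skimmed B. Summed over arms, miR-369 averaged 354 ± 67.2 CPM over the whole and 221 ± 49.1 CPM over the skimmed libraries (SD, n = 3 each). The powders did not overlap in this sum, with skimmed C (268 CPM) and whole B (281 CPM) nearest to each other; it was not tested.

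Lettered copies were also summed by family. The 3 rows of miR-411 summed to 1277, 1009 and 1084 CPM in whole and 804, 822 and 1338 CPM in skimmed. The 4 rows of miR-376 summed to between 32.2 and 151 CPM, nearly all of it miR-376e except in whole A. Both families overlapped between the powders.

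Skimmed and whole powder were then compared over all miRNAs in 1 fit. Of the 39 rows, 27 passed the filter on low counts among 209 rows tested, and 0 of these 27 had an adjusted p under 0.05 in edgeR's quasi-likelihood test, where 0.478% of all rows did. At an unadjusted p under 0.05 there was 1 of 27, miR-381, against 10.5% of all rows. The median log2 fold change of the tested cluster rows was 0.03, the same as over all 209, with 15 above and 12 below 0. Upper-quartile scaling moved these medians to -0.14 and -0.11. CPM of the powders did not overlap for 4 of the 27 (miR-127 and miR-380-3p higher, miR-369-3p and miR-381 lower in skimmed), while 20.1% of all tested rows did not. After miR-381 and miR-369-3p the lowest p on the lower side belonged to miR-665 (log2 fold change -4.20 ± 2.72 SE), miR-410 (-2.44 ± 2.47) and the shared row of miR-382. On the higher side came miR-127, miR-380-3p (2.52 ± 1.78), miR-369-5p (3.16 ± 2.23), miR-379 and miR-655, all with an edgeR adjusted p of 0.70 or more.

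**Figure D4:**
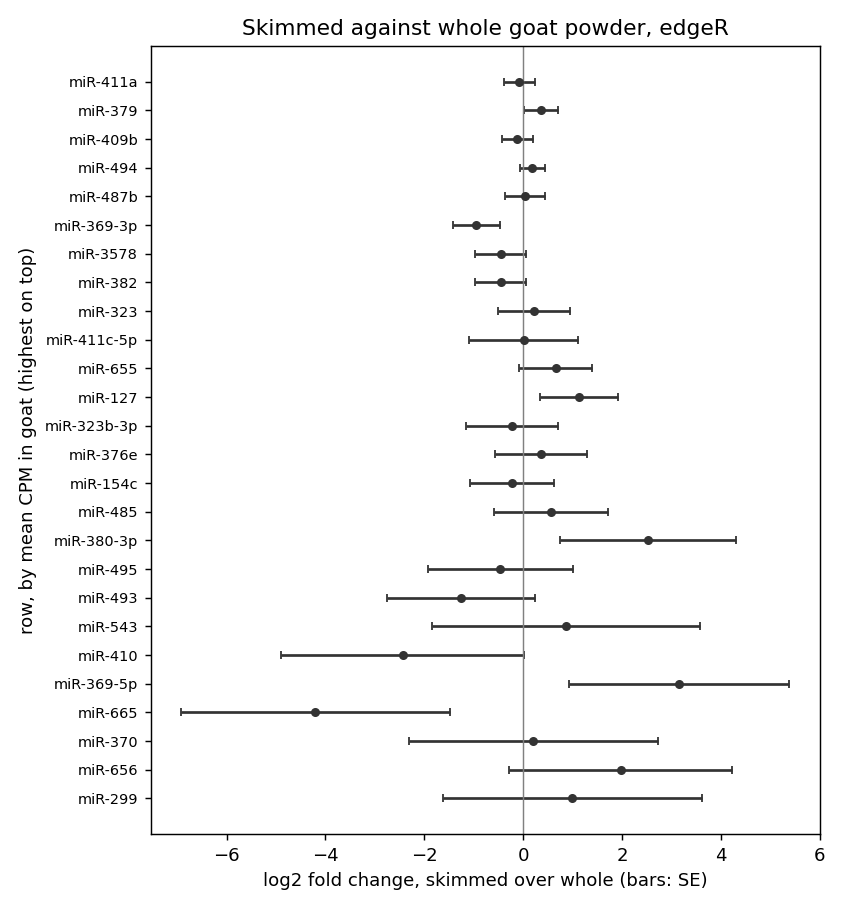
Log2 fold change of skimmed over whole goat powder (horizontal axis, bars are the SE) for 26 of the 27 tested cluster rows (vertical axis, by goat mean, highest on top); miR-381, at 0 reads in all skimmed libraries, is left out because its fitted value is not bounded. The upper rows lie close to 0, and the SE widens from 0.31 for miR-411a to over 2 in the lower rows such as miR-665 (2.72).

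DESeq2's Wald test, an alternative, gave calls where the main test gave none. It called 4 cluster rows of 29 with an adjusted p, against 9.05% of all such rows. It called 3 rows lower in skimmed, miR-381, miR-411b and miR-432, where 4.94% of the 243 rows with an adjusted p were called lower, and 1 row higher, miR-154b, where 4.12% were. Pooled over libraries, miR-381 had 874 reads in whole and 0 in skimmed. It was thus 259-fold higher in whole when 3 reads were taken for the skimmed libraries together as the floor. The lower 95% limit of its ratio from counts was 210. For miR-411b the pooled counts were 929 and 1, a ratio of 827 with a 95% interval of 148.1 to 32703 from counts. Whole A held 1 of these reads, so not all whole libraries were high. The antisense RTL1 miRNA miR-432 was seen with 264 reads in whole A and 321 in whole B, but with 1 in whole C, as low as the skimmed libraries (2, 1 and 0). In turn miR-154b had 532 reads in skimmed A and 807 in skimmed B, while skimmed C had 1 read and the whole libraries 0, 1 and 0. Leaving out 1 library at a time kept DESeq2's calls of miR-381 and miR-154b in all 6 fits, that of miR-411b in 5 (adjusted p = 0.18 without whole B) and that of miR-432 in 3 (0.21 without whole A, 0.10 without whole B and 0.058 without skimmed B). The number of cluster rows DESeq2 called then ran from 3 to 8. It was 8 of 31 without whole A, where 11.8% of all rows were called. It was 7 of 35 without skimmed A (6.71%) and 7 of 35 without skimmed C (13.2%). The other fits gave 5 of 36 without skimmed B (6.71%), 5 of 33 without whole C (7.43%) and 3 of 32 without whole B (12.5%). Whether these shares differ was not tested. In limma-voom 0 of 27 cluster rows passed, where 0.478% of all rows did, and 3 had an unadjusted p under 0.05, where 14.4% did.

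How many cluster rows were seen did not separate the powders. At least 1 read was counted for 30, 32 and 29 rows in whole libraries and 33, 29 and 30 in skimmed (exact permutation p = 1), and at least 100 reads for 27, 25 and 22 rows in whole and 23 in each skimmed library (exact permutation p = 0.4). Of the rows with at least 100 reads, 2 libraries of the same powder shared 19 to 22, and a whole and a skimmed library shared 17 to 21. As shares of either library's rows these were 70.4% to 90.9% and 68.0% to 91.3%.

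The bovine powder, with 1 library, allowed no test, and species, product and library cannot be told apart in it. There the cluster had 13 rows at 0 reads, 13 with 1 to 3 reads and 12 with 4 to 99. A single row, miR-487b, passed 100 reads. It had 380 reads, 61.5% of all cluster reads in that library. At least 10 reads were found for 7 rows, against 22 to 28 in the goat libraries. By contrast, the number of rows with at least 1 read, 26 in bovine, was closer to goat. It was still below all of the 26.6 to 31.1 expected in the goat libraries at the bovine depth. The source of the few reads in that library, bovine RNA or reads passed on from other libraries, was not tested, and folds below compare the reads counted there. Rows were kept by their goat level, which by itself favours lower bovine values in them, so the counts that follow are a description. All 13 cluster rows with a goat mean of at least 100 CPM were below every goat library in bovine, where 55.6% of all rows at that level were.

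In 12 of these 13 rows bovine was at least 10-fold below the goat mean, where 27% of all rows at that level were. This limit was set after the values were seen. Outside the cluster 22 of 113 rows (19.5%) were that far below. The identical rows of miR-382 and miR-3578 count as 2 here and in the other counts of cluster rows. The 12 folds lay between 70.4 for miR-323 and 154.1 for miR-323b-3p, while the median over all 13 was 140.2. At a lower limit of 10 CPM, 30 of 31 cluster rows were at least 10-fold lower in bovine, where 47.9% of all rows were. Bovine counts under 3 reads were taken as 3 here. Some rows reached this limit through 1 or 2 goat libraries only, such as miR-433 and miR-154b, and bovine was not below every goat library in them. Over all 39 cluster rows bovine was below every goat library in 19, against 103 of all 364 rows. For miR-411a the goat mean was 152 times bovine (95% interval 108 to 220 from the bovine count), for miR-409b 149 times (104 to 221), for miR-494 120 times (85.6 to 173), for miR-379 94.7 times (72.2 to 126.8) and for miR-127, of the RTL1 group, 90.5 times (45.9 to 210). The interval of miR-487b, 7.28 times (6.58 to 8.07), did not reach those of the others. Over the 113 rows outside the cluster the median fold was 1.41, but a gap as large as the cluster's was not particular to it. Among the 22 such rows past 10-fold, miR-155 had 1403 CPM in the goat mean and 7.75 in bovine. For miR-224 these were 1740 and 13.0 CPM, and for miR-143 1774 and 16.8 CPM. Without miR-487b the goat share of the remaining cluster rows was 127.2 times the bovine one.

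**Figure D5:**
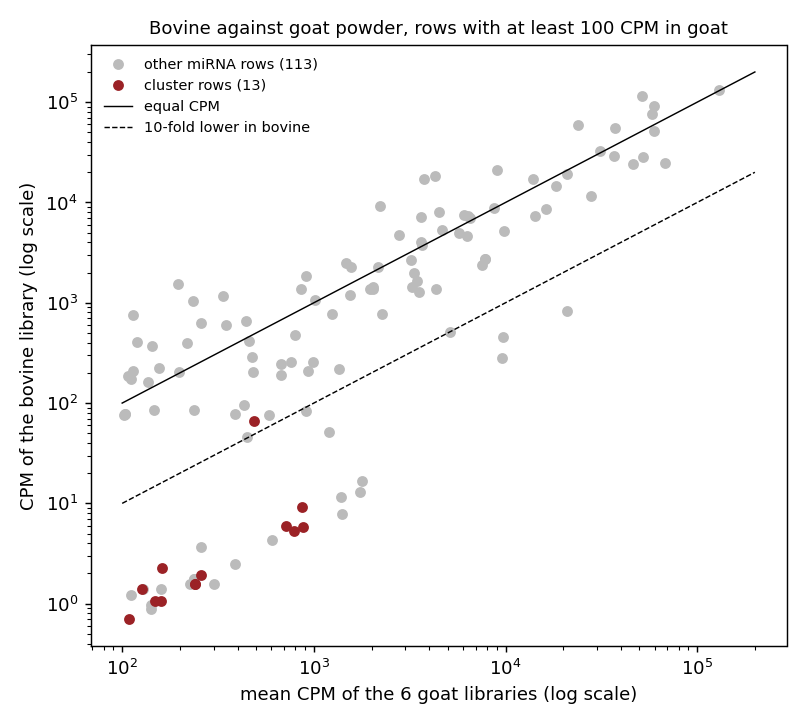
CPM of the bovine library (vertical axis, log scale) against the mean CPM of the 6 goat libraries (horizontal axis, log scale) for all rows with a goat mean of at least 100 CPM, the 13 cluster rows in red and 113 others in grey; lines mark equal CPM and a 10-fold lower bovine value. Of the 13 cluster rows 12 lie below the 10-fold line, among 22 other rows there, and miR-487b lies above it.

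Marker lists of other cell types moved with the bovine difference in part. Stromal and endothelial miRNAs (miR-126-3p, miR-143 and miR-145) summed to between 0.149% and 0.246% of goat reads and to 0.00172% in bovine, with 2 of 3 rows above 0 and miR-126-3p at 0. In their lowest goat libraries miR-126-3p and miR-145 were at 0 as well. The 6 leukocyte rows, among them miR-223 and miR-155, summed to between 0.555% and 0.758% in goat and 0.139% in bovine. Of these, miR-142-3p and miR-150 were at 0 in bovine. Both were also at 0 in their lowest goat library, with goat means of only 6.74 and 6.81 CPM. The largest, miR-342, had a goat mean of 3545 CPM and 1287 in bovine, and miR-142-5p 238 and 85.7 CPM. The gap was wider for miR-223 (1392 and 11.5 CPM) and miR-155 (1403 and 7.75 CPM). Of the erythroid list, miR-144 and miR-451 had no row. The 1 erythroid row, miR-486, took 0.00156% to 0.00728% of goat reads and had 1.76e-05% in bovine. That bovine value was 1 read, under the floor of 3 reads. The part of these lists in the cluster's difference was not tested. The epithelial sum in bovine, given above, lay inside the goat range, while its rows lay on either side of it: miR-375 had 11535 CPM in bovine against 23879 to 33520 CPM in goat, and miR-200c had 55374 against 33936 to 44203 CPM. Between the goat powders the same sums were 0.149% to 0.165% in whole and 0.169% to 0.246% in skimmed for the stromal rows and 0.555% to 0.693% and 0.577% to 0.758% for the leukocyte rows. The stromal and the epithelial sums were thus higher in every skimmed than in any whole library, though neither was tested. Among single tested rows, 20.1% did not overlap between the powders. The milk list (miR-148a, miR-21 and miR-30a) leaned the other way with overlap, at 16.8% to 22.0% in whole and 12.7% to 17.6% in skimmed. Nearly all of the stromal sum was miR-143, at a goat mean of 1774 CPM against 27.5 for miR-145 and 10.6 for miR-126-3p.

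Other imprinted miRNAs were few in the tables. Of 13 further names placed in the DLK1-DIO3 cluster, 1 had a row, miR-3956, with over 100 reads in whole A, 2 in skimmed A and 0 in the other 5 libraries. A row named miR-299-2, outside these names and the cluster rows counted here, had the same goat mean as miR-299 (10.6 CPM). Their lowest (0) and highest (30.1 CPM) goat values were also the same, and both had 0 in bovine. From other imprinted loci, 3 rows were found. The MEST-hosted miR-335 was abundant, at 1346 ± 184 CPM over the goat libraries (SD, n = 6), with a log2 fold change of 0.06 between the powders (edgeR adjusted p = 0.96), and its goat mean was 6.14 times bovine. The GNAS-locus rows were again high or near absent: miR-296-5p had 205.5 reads in skimmed C and 0 elsewhere, and miR-296-3p passed 100 reads in all 3 whole libraries (778 in whole B and 249 in whole C), with at most 1 in each skimmed and bovine library (adjusted p = 0.12 in edgeR and 0.00011 in DESeq2).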

How the data were processed

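Per the labels' protocols, total RNA was extracted with a mirVana kit, small RNA libraries were cut from an acrylamide gel at 140 to 160 nt and single-end reads of 50 bases were made. Per the file headers, each of 7 deposited tables gives counts per mature miRNA under bovine names. Many deposited values are not whole and are taken here as estimated counts; how the authors came to fractions is not stated, and library totals differ as in values without normalization. The sources used here do not give the aligner, counter, reference or treatment of goat reads that differ from bovine sequences. Mature sequences were not used here.

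CPM were computed over the 364 rows. Rounded counts of the 6 goat libraries were fitted with edgeR 4.0.16 (R 4.3.3; default low-count filter, TMM factors 0.928 to 1.067, quasi-likelihood test, Benjamini-Hochberg over 209 rows, threshold 0.05). The SE is the log2 fold change over the square root of F. DESeq2 1.42.0 (its own filtering, no prior filter), limma-voom (limma 3.58.1), other scalings and filters, and leaving out each library were alternatives. Single values had exact two-sided permutation tests (SciPy 1.17.1). Members and lists were chosen with earlier results of these data known. Named with values were rows with a goat mean of at least 100 CPM, rows called by any test, the 5 lowest p in each direction, rows without overlap between powders, and rows farthest from goat in bovine; others are named as members of a count or as examples seen in the data.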

Additional observations from a re-analysis of the deposited data

Results flagged for a closer look

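In 17 measures over the 6 goat libraries, 3 had a library set apart from the others by a gap of over 0.625 of the range, Dixon's 95% critical value for 6 samples. They were miR-379 in whole B, lowest at 423 CPM, miR-409b in whole B, highest at 1325 CPM, and miR-655 in skimmed A, highest at 314 CPM. Such a gap arises in about 1 in 20 groups by chance, and the 6 libraries span both powders.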

How the results depend on the processing

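The number of cluster rows past the threshold was 0 in edgeR under every scaling, filter and left-out library tried and in limma-voom, and 4 with DESeq2's Wald test. With DESeq2 it ran from 3 to 8 over the fits that left out 1 library, where 6.71% to 13.2% of all rows were called. The difference in the number of rows with at least 1 read, 0.33 in favour of skimmed, turned to -1.67 when at least 10 reads were asked for, and ran from -0.83 to 1.17 over the 6 left-out libraries. The bovine share over the goat mean, 0.0187, was 0.0270 without the 3 most abundant members and 0.00786 without miR-487b, which was added after seeing the data.

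Fits of 18 named rows gave 247 values, of which 22, in 7 rows whose SE exceeded their size, changed sign. For miR-487b these were -0.044 (library totals), -0.14 (upper quartile), -0.013 (no filter), -0.045 (limma-voom) and -0.073 (replicate block), and over left-out libraries -0.49 to 0.23. For miR-411c-5p they were -0.043, -0.16 and -0.025 under the same scalings and filter and -0.015 with the replicate block, and -0.86 to 0.57 over left-out libraries. Over left-out libraries miR-323 ran from -0.42 to 0.79, miR-323b-3p from -0.79 to 0.18, miR-409b from -0.35 to 0.31, miR-411a from -0.44 to 0.17 and miR-655 from -0.14 to 0.95. Upper-quartile scaling moved the median of all rows from 0.03 to -0.11. The letters do not pair the libraries by any label: same-letter deviations correlated at 0.060 to 0.20 and others at -0.18 to 0.040, each library correlating best with its own letter, and the replicate block called 0 cluster rows.

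The cause of these changes was not tested.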
